A study of Rattus norvegicus with 4 samples.

Results

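Transcripts of 9 tricarboxylic acid (TCA) cycle genes, Cs, Idh2, Idh3a, Idh3b, Idh3g, Ogdh, Suclg1, Fh and Mdh2, were measured in rat skeletal muscle. The genes were listed by name, with earlier results of these data known. They were located through the RefSeq accession of their probes. All 9 were found, with 1 probe each, among 26624 genes or unnamed accessions. Each of the 9 was flagged as well above background on all 4 arrays, so all 9 passed the filter on dim signals that left 13326 genes for testing.

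The arrays came from male rats aged 15 weeks. Wild-type (WT) Wistar muscle gave 2 arrays, muscle of an exercised SPORTS rat 1 array, and muscle of a sedentary SPORTS rat 1 array. SPORTS is a hyperactive mutant rat on a Wistar background, and the labels name neither the mutation, the muscle sampled nor the kind of exercise. The WT rats are sedentary in the series' design text, while their own labels give no exercise state. Nothing in the labels says that the WT arrays came from separate animals, so the p-values rest on the spread among these arrays alone, and that spread may be technical.

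The muscle label was checked with fibre genes. All 11 slow fibre and all 12 fast fibre genes listed were well above background on every array. That does not tell whether the arrays sample the same muscle, and fibre genes differed between arrays, as described below. The array of the exercised SPORTS rat differed most from the rest. Of the genes tested, 20.6% lay at least 2-fold from the WT mean on it, against 5.62% on the sedentary SPORTS array, and the WT arrays differed 2-fold from each other for 1.13%. Between 46.0% and 50.3% of probes were well above background per array, with the lowest share on the exercised array. That array was also dimmer before scaling. Its median processed signal was 60.9, against 89.1 to 90.4 on the others, and its 75th percentile 9.76 on the log2 scale, against 10.08 to 10.12. All 4 arrays lay on 1 slide, so no batch could be compared, and precision is limited by how few arrays there are.

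The TCA cycle runs in the mitochondrial matrix and oxidises the acetyl group of acetyl-CoA to carbon dioxide, passing electrons to NAD and to ubiquinone for the respiratory chain. Isocitrate is oxidised by a NAD-linked enzyme, built from alpha, beta and gamma subunits encoded by Idh3a, Idh3b and Idh3g, and by a separate NADP-linked enzyme, encoded by Idh2, whose NADPH serves antioxidant defence. In muscle, citrate synthase activity is a customary measure of mitochondrial content and is usually higher in oxidative than in glycolytic fibres.

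Promoters were read from a RefSeq-derived table of rat assembly GRCr8, which held 8 of the 9 genes, all but Idh3a. The 250 bases before the annotated start are shown 5′ to 3′ on the gene's strand for Idh2, Ogdh and Suclg1, for which data on the exercised SPORTS array passed the test described below, and for Cs, which did not pass. Capitals mark matches, on either strand, to the letters CCGGAAG (bound by GABPA), AAGGTCA (a half-site of estrogen-related receptors), TGACGTCA (the cAMP response element), CCAAT (bound by NF-Y), GGGCGG (the GC box) and the NRF1 motif. No matches of different motifs overlapped in these windows. Idh2 is at chr1:143467249-143467498 on the minus strand, Ogdh at chr14:85363781-85364030 on the plus strand, Suclg1 at chr4:106866079-106866328 on the plus strand and Cs at chr7:1348139-1348388 on the plus strand.
Idh2: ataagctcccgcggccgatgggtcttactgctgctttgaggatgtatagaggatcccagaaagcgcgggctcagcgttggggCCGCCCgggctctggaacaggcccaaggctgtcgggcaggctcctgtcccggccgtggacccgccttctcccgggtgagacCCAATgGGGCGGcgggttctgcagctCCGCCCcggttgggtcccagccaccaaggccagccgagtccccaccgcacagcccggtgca
Ogdh: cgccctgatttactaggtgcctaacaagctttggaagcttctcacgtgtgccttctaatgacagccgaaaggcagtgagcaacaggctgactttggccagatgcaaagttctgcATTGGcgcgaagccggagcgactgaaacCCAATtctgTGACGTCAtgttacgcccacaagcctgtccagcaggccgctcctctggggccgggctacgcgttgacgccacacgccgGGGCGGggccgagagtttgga
Suclg1: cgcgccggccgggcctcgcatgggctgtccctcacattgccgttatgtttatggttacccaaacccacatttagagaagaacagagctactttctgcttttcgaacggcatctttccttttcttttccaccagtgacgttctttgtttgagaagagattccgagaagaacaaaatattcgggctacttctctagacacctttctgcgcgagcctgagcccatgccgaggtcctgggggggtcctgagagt
Cs: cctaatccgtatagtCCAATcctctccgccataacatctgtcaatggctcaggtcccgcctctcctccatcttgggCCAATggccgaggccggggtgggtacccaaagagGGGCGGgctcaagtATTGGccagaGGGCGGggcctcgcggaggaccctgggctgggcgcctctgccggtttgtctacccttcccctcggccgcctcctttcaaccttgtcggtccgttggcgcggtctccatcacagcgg

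The CCAAT letters stood in 6 of the 8 promoters (Cs, Idh2, Idh3b, Idh3g, Ogdh and Fh) and in 34.0% of all 33469 promoters of that length. The GC box stood in 5 of 8 (Cs, Idh2, Ogdh, Fh and Mdh2) and in 30.5% of all. The GABPA letters stood in 3 (Idh3b, Idh3g and Mdh2) and in 7.27% of all, and the cAMP response element in 2 (Ogdh and Mdh2) and in 1.59% of all. The half-site of estrogen-related receptors and the NRF1 letters were in none of the 8, and in 3.99% and 3.75% of all promoters. Suclg1, shown above, held none of the 6 motifs. The member promoters had a median GC content of 59.4%, against 51.2% over all promoters.

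A level is the log2 processed signal after subtraction of its array's 75th percentile, so positive levels lie above that percentile. Levels of single genes are not set against each other, since each probe binds with its own efficiency. The summed signals of gene lists below do add different probes, so each sum follows its brightest probes. Differences are followed by ± the fitted standard error. Sedentary and exercised SPORTS arrays were each set against the WT pair in a limma fit with 3 groups, which assumes that the lone SPORTS arrays vary like the WT pair. Both comparisons use the same WT arrays. The exercised SPORTS array differs from WT in genotype and, by the design text, in exercise, so the 2 cannot be told apart there. In both comparisons with WT, genotype also cannot be told apart from the animal or the muscle sampled, which the labels do not name. The same holds for exercise on the exercised array. In these bulk samples, fewer cells of a type and less RNA per cell cannot be told apart.

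On the exercised SPORTS array 4 of the 9 genes passed the adjusted threshold of 0.05: Idh3a and Suclg1 rose, and Idh2 and Ogdh fell. Of all genes tested, 53.3% passed in this comparison, 27.3% higher and 26.0% lower, so 4 of 9 is not above that background. Scaling arrays by their median moved the median over all genes from 0.00 to 0.23 and the split from 3634 higher and 3463 lower to 5571 and 2505. The median of the 9 differences was 0.03 on the log2 scale, against 0.00 over all genes tested (n = 1 exercised and 2 WT arrays). The median absolute difference was 0.18 over the 9 genes and 0.41 over all genes. On the sedentary SPORTS array none of the 9 passed in limma, against 6.27% of all genes (2.82% higher and 3.45% lower), and 3 of the 9 (Idh2, Idh3a and Fh) had an unadjusted p under 0.05, against 36.3% of all genes.

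**Figure D1:**
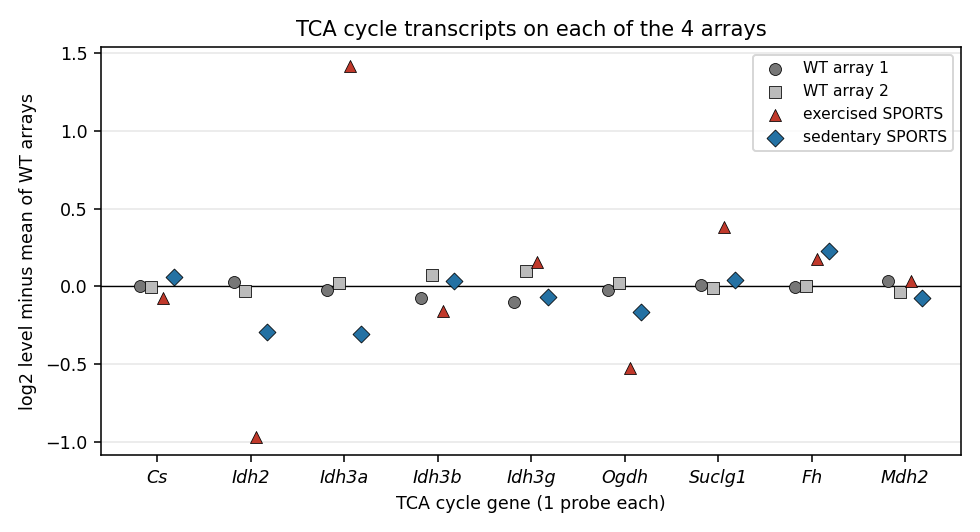
Level of each of the 9 TCA cycle genes on each array, as log2 level minus the mean of the 2 WT arrays (vertical axis), with the genes on the horizontal axis. The exercised SPORTS array (triangles) lies 1.42 above the WT mean for Idh3a and 0.97 below it for Idh2, while the WT arrays (circles and squares) lie within 0.10 of their mean for every gene.

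Cs encodes citrate synthase, which joins acetyl-CoA to oxaloacetate and opens the cycle. Both WT arrays were at 4.35, the exercised SPORTS array was at 4.28 and the sedentary one at 4.41. The exercised array differed from WT by -0.073 ± 0.062 (adjusted p = 0.391, limma) and the sedentary array by 0.060 ± 0.062 (adjusted p = 0.535). The sign on the exercised array turned to 0.15 when arrays were scaled by their median, and neither difference passed the threshold.

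The isocitrate step held the largest differences of the 9 genes. Idh3a encodes the alpha subunit, the catalytic subunit of the NAD-linked enzyme. The WT arrays were at 1.44 and 1.48, the exercised SPORTS array was at 2.88 and the sedentary one at 1.15. The exercised array was the highest, the WT arrays lay together, and the sedentary array was below both. Against WT, Idh3a rose by 1.42 ± 0.07 on the exercised array, or 2.68-fold (adjusted p = 0.00494, limma). A difference at least as large was seen for 12% of all genes tested. The sedentary array differed by -0.31 ± 0.07 (adjusted p = 0.0924), which is larger than the gap of 0.05 between the WT arrays but missed the threshold. With a variance trend this sedentary difference passed.

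The other subunits of the same enzyme did not pass the test. Idh3b, which encodes the beta subunit, had WT levels of 2.62 and 2.77, an exercised level of 2.54 and a sedentary level of 2.73. Idh3g, which encodes the gamma subunit, had WT levels of 6.31 and 6.52, an exercised level of 6.57 and a sedentary level of 6.35. For both genes the spread of the WT pair, 0.14 and 0.20, was close to the differences seen. The exercised array differed from WT by -0.16 ± 0.10 for Idh3b (adjusted p = 0.264) and by 0.16 ± 0.12 for Idh3g (adjusted p = 0.349). The sign for Idh3b turned with scaling by the median (0.07) and that for Idh3g with quantile normalization (-0.13). The gap between the changes of 2 genes on the same array is free of the array's scaling factor. By that measure Idh3a changed by 1.58 log2 units more than Idh3b and by 1.26 more than Idh3g on the exercised array against WT. The same gaps were -0.34 and -0.24 on the sedentary array, and -0.10 and -0.16 between the WT arrays.

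Idh2, which encodes the mitochondrial NADP-linked isocitrate dehydrogenase, lay below both WT arrays on both SPORTS arrays. Its WT levels were 8.01 and 7.96, its sedentary level 7.69 and its exercised level 7.02. It fell by 0.97 ± 0.07 on the exercised array, a loss of 48.9% of the signal (adjusted p = 0.00716, limma), and a difference that large was seen for 21.5% of all genes tested. The sedentary difference was -0.29 ± 0.07 (adjusted p = 0.102). It passed with a variance trend and shrank to -0.10 with quantile normalization. The changes of Idh3a and Idh2 lay 2.39 log2 units apart on the exercised array, a 5.23-fold shift of the first relative to the second, and 0.02 apart on the sedentary array.

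Ogdh encodes the first subunit of the alpha-ketoglutarate dehydrogenase complex, which turns alpha-ketoglutarate into succinyl-CoA. Its WT levels were 3.99 and 4.03, its sedentary level 3.85 and its exercised level 3.49, so both SPORTS arrays lay below both WT arrays. It fell by 0.52 ± 0.07 on the exercised array, or 30.4% (adjusted p = 0.0168, limma). The size was -0.30 with median scaling (adjusted p = 0.0418) and -0.72 with quantile normalization, and without a filter on dim probes the adjusted p was 0.0554. Its sedentary difference was -0.17 ± 0.07 (adjusted p = 0.20).

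Suclg1 encodes the alpha subunit of succinyl-CoA ligase, which makes a nucleoside triphosphate as succinyl-CoA is cleaved. Its WT levels were 6.24 and 6.23, its sedentary level 6.28 and its exercised level 6.62. The sedentary and WT arrays lay within 0.05 of each other, and the exercised array stood above them. Suclg1 rose by 0.38 ± 0.06 on the exercised array, or 1.30-fold (adjusted p = 0.0265, limma). The call was lost with quantile normalization, where the difference was 0.09 (adjusted p = 0.338), with normexp background correction (0.28) and without a filter on dim probes, and the difference was 0.61 with median scaling.

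Fh and Mdh2 encode fumarase and the mitochondrial malate dehydrogenase, the enzymes of the last steps of the cycle. Fh had WT levels of 5.37 and 5.38, an exercised level of 5.55 and a sedentary level of 5.60. Both SPORTS arrays lay above both WT arrays, by 0.18 ± 0.06 for the exercised (adjusted p = 0.110) and by 0.23 ± 0.06 for the sedentary array (adjusted p = 0.122), and neither passed. The Fh probe was printed at 10 spots per array, whose SD ranged from 0.02 to 0.03. The exercised difference passed with median scaling (0.40, adjusted p = 0.0212) and with a variance trend (adjusted p = 0.0351), and turned to -0.017 with quantile normalization. The sedentary difference passed with a variance trend (adjusted p = 0.0431). Mdh2 had WT levels of 4.97 and 4.90, an exercised level of 4.97 and a sedentary level of 4.86. Its differences from WT, 0.033 ± 0.073 and -0.076 ± 0.073, were close to the gap of 0.075 within the WT pair, and the first turned to -0.15 with quantile normalization.

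**Figure D2:**
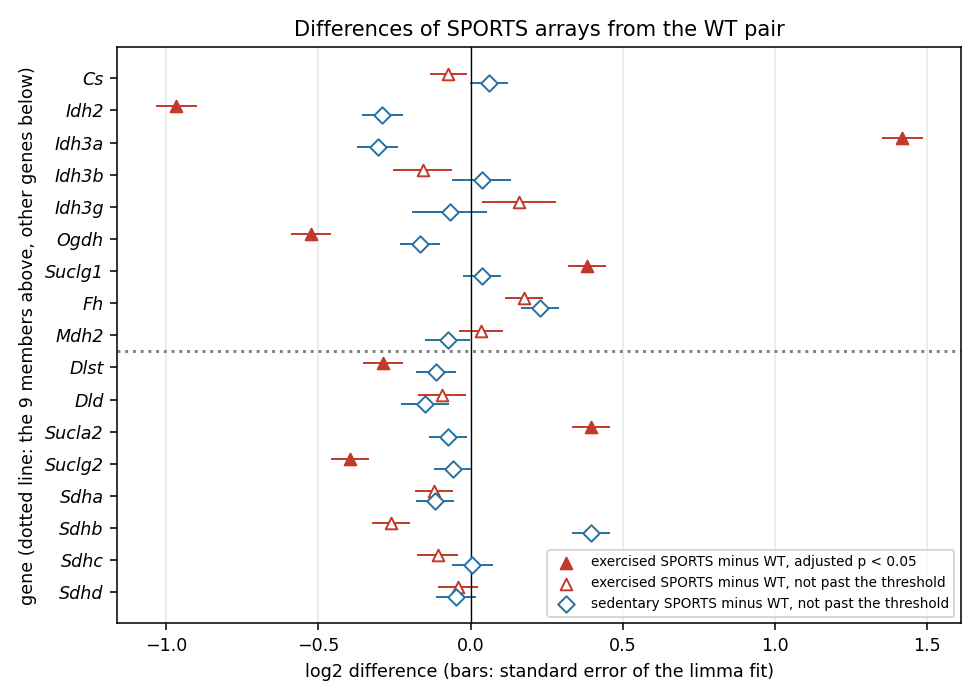
Log2 difference of the exercised (triangles) and sedentary (diamonds) SPORTS array from the 2 WT arrays for the 9 members and 8 other TCA cycle genes, with the standard error of the limma fit as bars; filled symbols passed the adjusted threshold of 0.05. Of the 9 members Idh3a and Suclg1 are filled on the right and Idh2 and Ogdh on the left, and no sedentary value is filled; Suclg1 is not called with quantile normalization.

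Exercised and sedentary SPORTS muscle were also compared within the genotype. With a single array on either side, no replicate checks these differences. Exercise cannot be told apart from the animal or the muscle sampled, which the labels do not name. All 12 fast fibre genes were at least 2-fold higher on the exercised array, and 10 of 11 slow fibre genes at least 2-fold lower. Idh3a was 3.31-fold higher on the exercised array, and was the 1 gene of the 9 at least 2-fold apart, against 21.9% of all genes tested (9.11% higher and 12.8% lower). Idh2 differed by -0.68, Ogdh by -0.36 and Suclg1 by 0.34 on the log2 scale. These sizes depended on scaling. With quantile normalization Idh2 was at -1.19, past 2-fold, and Suclg1 at 0.0060, and with median scaling Ogdh was at -0.16 and Suclg1 at 0.54. The other 5 genes lay between -0.19 for Idh3b and 0.23 for Idh3g. Between the WT arrays Idh3b differed by 0.14 and Idh3g by 0.20, and the median absolute gap over the 9 genes was 0.048.

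Both SPORTS arrays were also set against both WT arrays, ignoring exercise. Exercise is not balanced between the genotypes here, since 1 SPORTS array is of an exercised rat and no array is labelled exercised WT. Genotype and exercise therefore cannot be fully told apart, and neither can be told apart from the animal or the muscle sampled. None of the 9 genes passed in limma (0% of all genes did), and none had an unadjusted p under 0.05, which 7.37% of all genes had. Idh2 differed by -0.63 ± 0.29 (adjusted p = 0.75) and Ogdh by -0.34 ± 0.19 (adjusted p = 0.768), while Idh3a differed by 0.56 ± 0.67 (adjusted p = 0.805). Leaving out 1 SPORTS array only repeats the comparison of the other one with WT given above. Both SPORTS arrays lay above both WT arrays for 2 genes (Suclg1 and Fh) and below them for 2 (Idh2 and Ogdh). Of all genes tested, 21.4% had both above and 22.3% both below, 43.7% in all. They lay on opposite sides for Idh3a and Cs, 2 of 9 against 37.6%. The exercised array was outside the WT range for 8 of 9 genes and the sedentary array for 7 of 9, against 92.2% and 87.2% of all genes.

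Spread among the 9 genes also differed by array. Set against the WT mean, the differences ranged from -0.97 to 1.42 on the exercised array, with an SD over the 9 genes of 0.66. For the sedentary array they ranged from -0.31 to 0.23, with an SD of 0.17. The sign of the median over the 9 genes was not stable. On the exercised array it was 0.26 with median scaling and -0.15 with quantile normalization. Without WT array 2 it was -0.0041 on the exercised and 0.031 on the sedentary array, where it was -0.069 with both WT arrays.

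**Figure D3:**
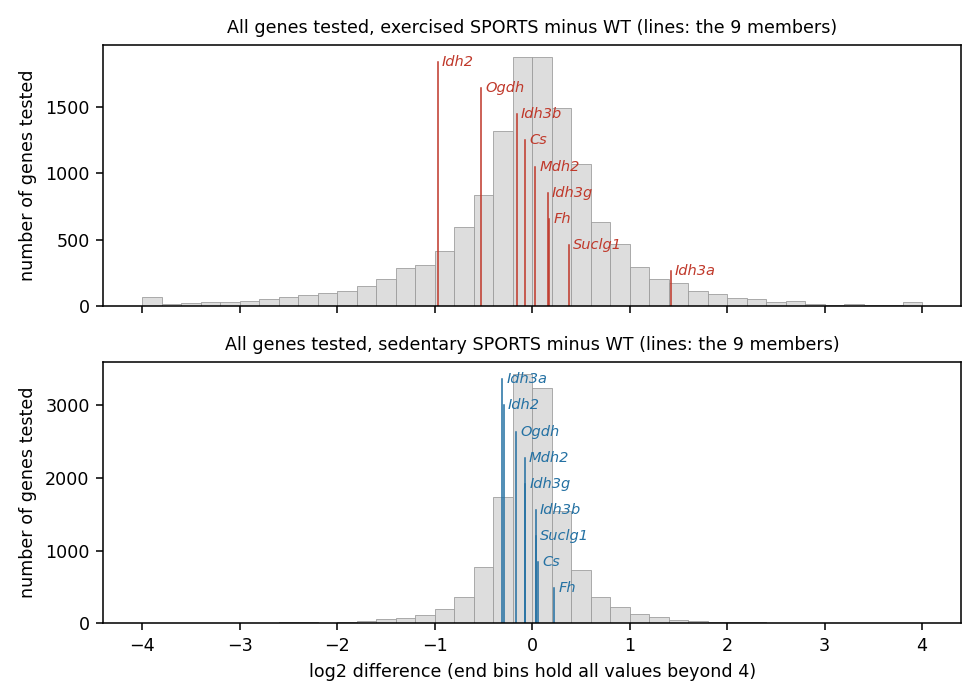
Histograms of the log2 difference from the 2 WT arrays for all 13326 genes tested, on the exercised (upper) and sedentary (lower) SPORTS array, with the number of genes on the vertical axis; vertical lines, whose height carries no value, mark the 9 TCA cycle genes. Idh3a at 1.42 and Idh2 at -0.97 lie toward the sides of the upper histogram, and the sedentary values lie between -0.31 and 0.23.

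Other genes of the cycle were taken from a list of 9, of which 8 had a probe and were tested. On the exercised array 1 of 8 rose and 2 fell (median -0.11), and on the sedentary array none passed in limma (median -0.07), with 1 gene, Sdhb, at an unadjusted p under 0.05. That is 37.5% called on the exercised array, against 53.3% of all genes tested (27.3% higher and 26.0% lower). On the sedentary array 6.27% of all genes passed, and 36.3% had an unadjusted p under 0.05. Sucla2, the ADP-linked beta subunit of succinyl-CoA ligase, rose by 0.40 ± 0.06 on the exercised array (adjusted p = 0.0253, limma). Suclg2, the GDP-linked beta subunit, fell by 0.40 ± 0.06 (adjusted p = 0.0250). Suclg1, the alpha subunit that pairs with either, changed by 0.01 log2 units less than Sucla2 and by 0.78 more than Suclg2. Between the WT arrays these gaps were 0.01 and -0.03. Such gaps are free of the array's scaling factor. The calls of Sucla2 and Suclg2 may depend on scaling, and their outcome under other scalings is not reported here.

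Dlst, the succinyltransferase subunit that works with Ogdh in the alpha-ketoglutarate dehydrogenase complex, fell by 0.29 ± 0.07 on the exercised array (adjusted p = 0.0474). Its WT levels were 4.70 and 4.66, its sedentary level 4.57 and its exercised level 4.39, the same order as for Ogdh. With median scaling the median difference over all genes was 0.23 on the exercised array, against 0.00 with the scaling used. A shift of that size is near the fall of Dlst, so its call and this order may depend on scaling. The outcome for Dlst under other scalings is not reported here. Dld, the dihydrolipoamide dehydrogenase that this complex shares with others, differed by -0.09 ± 0.08 (adjusted p = 0.383).

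The subunits of succinate dehydrogenase, which oxidises succinate and is also complex II of the respiratory chain, did not pass in either comparison. Sdhb, the iron-sulphur subunit, differed by -0.26 ± 0.06 on the exercised and by 0.40 ± 0.06 on the sedentary array (adjusted p = 0.0537 and 0.0659). For Sdha, the flavoprotein subunit, the differences were -0.12 ± 0.06 on both. Sdhc and Sdhd, the membrane anchors, differed by -0.11 ± 0.07 and -0.04 ± 0.07 on the exercised array.

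The median absolute difference on the exercised array was 0.51 for genes that control pyruvate entry and 0.47 for cytosolic counterparts and shuttles, beside 0.18 for the 9 members and 0.41 for all genes. The lists were not tested against each other. Of 11 genes tested that control entry of pyruvate, 3 rose and 3 fell on the exercised array (median -0.18), and 1 rose and 1 fell on the sedentary array (median 0.02). The shares over all genes were 27.3% higher and 26.0% lower on the exercised, and 2.82% and 3.45% on the sedentary array. Pdk1 and Pdk4 encode kinases that switch off pyruvate dehydrogenase. Pdk1 fell by 1.68 ± 0.07 and Pdk4 rose by 1.32 ± 0.07 on the exercised array (adjusted p = 0.00446 and 0.00522, limma). On that of the sedentary rat Pdk4 fell by 0.92 ± 0.07 (adjusted p = 0.0396). Pdp2, a phosphatase that switches the complex on, fell by 1.03 ± 0.07 on the exercised and rose by 0.81 ± 0.07 on the sedentary array (adjusted p = 0.00705 and 0.0450). Pc, pyruvate carboxylase, which refills the cycle with oxaloacetate, rose by 0.87 ± 0.07 on the exercised array (adjusted p = 0.00788).

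Of 11 tested genes of cytosolic counterparts and shuttles, 1 rose and 6 fell on the exercised array (median -0.45), and 1 fell on the sedentary array (median 0.02). Over all genes, 27.3% passed as higher and 26.0% as lower on the exercised array, and 3.45% as lower on the sedentary array. Idh1, the cytosolic NADP-linked isocitrate dehydrogenase, fell by 1.94 ± 0.06 on the exercised and by 1.36 ± 0.06 on the sedentary array (adjusted p = 0.00435 and 0.0327). Idh1 and Idh2 thus both fell on the exercised array. Slc25a10, the dicarboxylate carrier, fell by 1.28 ± 0.15, and Me1, the cytosolic malic enzyme, rose by 0.89 ± 0.06 (adjusted p = 0.0150 and 0.00721). Slc25a1, the citrate carrier, also passed as lower (adjusted p = 0.0151), but it was not well above background on the exercised array, and the bound there allows no fold.

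Respiratory chain genes, which take the electrons the cycle yields, served as a side-by-side measure of mitochondrial transcripts. Of 14 tested none rose and 1 fell on the exercised array (median -0.12), and none passed on the sedentary array (median -0.14), with 3 at an unadjusted p under 0.05. The share called on the exercised array was 7.14%, against 53.3% of all genes. On the sedentary array 6.27% of all genes passed, and the 3 are 21.4% of the list, against 36.3% of all genes. The gene that fell was Ndufs1, the core iron-sulphur subunit of complex I, by 0.29 ± 0.06 (adjusted p = 0.0439). Uqcrc1 (-0.32 ± 0.08), Uqcrfs1 (-0.23 ± 0.09) and Atp5f1b (-0.22 ± 0.06) did not pass. Median scaling moved the median over all genes from 0.00 to 0.23 on the exercised array, so the call of Ndufs1 may depend on scaling. No difference between this list and the TCA cycle genes was tested. Of 10 regulators of mitochondrial genes, 2 rose and 2 fell on the exercised array (median 0.09), and 1 rose on the sedentary array (median 0.13). Among all genes the shares were 27.3% higher and 26.0% lower on the exercised array, and 2.82% higher on the sedentary array. Ppargc1b, a coactivator of mitochondrial genes, fell by 0.85 ± 0.10, and Ppard and Nrf1, which encode transcription factors, rose by 0.49 ± 0.09 and 0.48 ± 0.08 (adjusted p = 0.0157, 0.0297 and 0.0276). Ppara differed by -0.44 ± 0.12 (adjusted p = 0.0653).

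Markers of fibre type also differed on the SPORTS arrays. Relative to the WT mean, the summed signal of 11 slow fibre genes was 0.216 on the exercised and 0.952 on the sedentary array. That of 12 fast fibre genes was 2.41 and 0.351. That of the 9 TCA cycle genes was 0.836 and 0.917, a sum in which Idh2 weighs most, and 1.13 and 1.01 without Idh2. On the exercised array 10 of 11 slow fibre genes fell and none rose (median -2.42). Among them Myl2, a slow myosin light chain, fell by 4.06 ± 0.07. Myh7b, a slow-type myosin heavy chain, fell by 3.44 ± 0.13, and Tnni1, slow troponin I, fell by 3.43 ± 0.07. Of 12 fast fibre genes 10 rose and 1 fell (median 1.01), on an array where 27.3% of all genes rose and 26.0% fell. Pvalb, the calcium buffer parvalbumin, rose by 7.52 ± 0.35, Myh4, the myosin of the fastest fibres, by 7.40 ± 0.21 and Actn3, a fast fibre actinin, by 6.82 ± 0.61. On the sedentary array 2 slow fibre genes rose and 6 fast fibre genes fell, with medians of -0.04 and -1.72. There 2.82% of all genes passed as higher and 3.45% as lower. The part of fibre type in the differences of Idh3a, Idh2, Ogdh and Suclg1 was not tested.

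**Figure D4:**
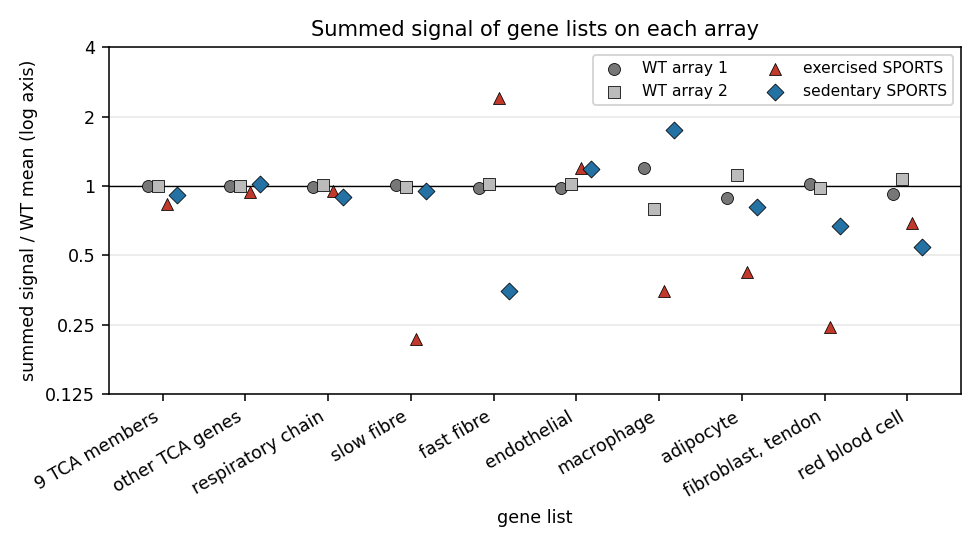
Summed signal of each gene list on each array divided by the WT mean, on a log axis, with the lists on the horizontal axis. The 9 TCA cycle genes lie at 0.836 (exercised) and 0.917 (sedentary), while slow fibre genes fall to 0.216 and fast fibre genes reach 2.41 on the exercised array.

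Markers of other cell types were also uneven. On the exercised array the summed signal relative to WT was 0.349 for 8 macrophage, 0.424 for 7 adipocyte, 0.246 for 8 fibroblast and tendon, 0.694 for 4 red blood cell and 1.20 for 7 endothelial genes. On the sedentary array, in the same order, it was 1.76, 0.809, 0.673, 0.543 and 1.18. The WT arrays ranged from 0.798 to 1.20 for macrophage genes and from 0.888 to 1.11 for adipocyte genes. On the exercised array 6 of 7 macrophage, 3 of 5 adipocyte, all 8 fibroblast and tendon and 1 of 3 red blood cell genes tested fell. Of 6 endothelial genes 1 rose and 1 fell. The shares over all genes on that array were 26.0% lower and 27.3% higher. The adipocyte gene Lep, the endothelial gene Tek and the red blood cell gene Slc4a1 were not well above background on any array. Adgre1 of macrophages and Tnmd of tendon were not well above background on the exercised array, so only a bound against the lowest signal well above background there is given. Adgre1 was at least 2.09-fold and Tnmd at least 24.1-fold lower than in WT (adjusted p = 0.0203 and 0.00424, limma). Adipoq of adipocytes fell by 2.97 ± 0.36 and Hba-a1 of red cells by 0.60 ± 0.12. Their part in the TCA cycle results was not tested.

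The genes whose pattern over the 4 arrays was most like the median of the 9 members were Cmas, Stau2, Rnaseh1, Churc1 and Brdt, at a root mean square distance of 0.01 log2 units after centring. That median is nearly flat, so this is a set of nearly flat genes. For Idh3a alone, a search added after its values were seen, the nearest were Tle1 at 0.02, then Adhfe1, Mapkapk3, Tpi1l1 and Trim63 at 0.04 to 0.05. On the exercised array 12% of all genes tested lay at least as far from WT as Idh3a. The likeness rests mostly on that 1 array, and no shared role was tested. Adhfe1 encodes a mitochondrial transhydrogenase that uses alpha-ketoglutarate, and Trim63 a muscle ubiquitin ligase. Adhfe1 had WT levels of -1.53 and -1.55, an exercised level of -0.11 and a sedentary level of -1.77.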

How the data were processed

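RNA from skeletal muscle of male rats was hybridised to 1-colour arrays, 2 of WT, 1 of an exercised and 1 of a sedentary SPORTS rat, grouped by source name. Per the labels' protocols, 100 ng of RNA was labelled with Cy3. Per the submitters' processing notes and the file headers, the scans were read with version 10.7.1.1 of Agilent Feature Extraction. The deposited intensity taken from each scan was its processed signal, background-subtracted and detrended within the array per the file headers. The authors' value table holds log2 values centred on each probe's median. Its column differences followed the scanner values scaled by the 75th percentile over 30015 probes, with a median offset of at most 0.0032, and its column medians ranged from -0.15 to 0.17.

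Control and outlier-flagged spots were left out, which dropped 352 of 30367 probes, and spots of a probe were averaged. No spot was saturated. Probes were named through RefSeq accessions of GRCr8, matching 59.4% to 1 symbol. The array design was annotated on an older assembly, so no probe coordinates are given. The brightest probe per gene was used, and genes well above background on at least 2 arrays were tested. Two-sided p-values came from limma 3.58.1 in R 4.3.3, with Benjamini-Hochberg adjustment over all 13326 genes, called below 0.05. The steps were run on simulated data that had the spread of the WT pair on every array. That cannot check the assumption that the lone SPORTS arrays vary like the WT pair. Alternatives covered scaling, background correction (normexp, offset 50), filters, floor, probe rule, variance trend, the value table and left-out arrays.

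All 9 members are named, as is every tested gene of the list of other cycle genes. 1 gene was left out of that list and is not reported here. From other pathway lists up to 4 genes, and from cell type lists up to 3, are named by the size of the exercised difference. The members and lists were chosen with earlier results of these data known.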

Additional observations from a re-analysis of the deposited data

Results flagged for a closer look

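On the exercised SPORTS array Idh3a lay 1.42 above the WT mean on the log2 scale, and on the sedentary SPORTS array it lay 0.31 below (-0.31), each beyond both WT arrays. Cs differed from the WT mean by -0.073 on the exercised and by 0.060 on the sedentary array. The arrays of the 2 SPORTS conditions thus lay on opposite sides of WT for these genes. In limma Cs did not pass on either array (adjusted p = 0.391 and 0.535), and Idh3a passed on the exercised (0.00494) but not on the sedentary array (0.0924). With 1 array per condition this difference was not tested, 37.6% of all genes tested had the arrays on opposite sides, and the exercised sign of Cs turned with scaling by the median.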

How the results depend on the processing

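No paired analysis was made, since the sample labels used here give no pairing and each SPORTS condition has 1 array. The count of members called on the exercised array against WT was 4, and 2 to 5 over the alternatives, lowest without a filter on dim probes (2), where the share of all genes called was 19.5% in place of 53.3%, and 5 with median scaling, where it was 60.6%. Idh3a and Idh2 were called in all 10 alternatives that give a p, but most of these could not move their differences. With median scaling, quantile normalization and normexp, Idh3a was at 1.64, 1.27 and 1.38, and Idh2 at -0.74, -1.29 and -1.02. The others left them at 1.42 and -0.97, and leaving out the sedentary array repeats the same fit. Fh was called with median scaling and with a variance trend. On the sedentary array against WT the count was 0, except for 3 with a variance trend (Idh2, Idh3a and Fh). In that setting 21.1% of all genes were called on the sedentary array. For both SPORTS arrays against both WT arrays the count was 0 in every alternative that kept all 4 arrays. Between the SPORTS arrays 1 member was 2-fold apart, and 2 with quantile normalization. Scaling by the array median shifted the median of all genes by 0.23 on the exercised array, and with it the sign of Cs to 0.15 and of Idh3b to 0.067. Quantile normalization turned Idh3g to -0.13, Fh to -0.017 and Mdh2 to -0.15, and normexp turned Mdh2 to -0.030. On the sedentary array normexp turned Idh3b to -0.035. For both SPORTS against both WT, median scaling turned Cs to 0.12, Idh3b to 0.067 and Mdh2 to 0.11, normexp turned Cs to 0.013 and quantile normalization Idh3g to -0.079. With 1 array left out, Cs ranged from -0.073 to 0.060, Idh3a from -0.31 to 1.42, Idh3b from -0.16 to 0.037, Idh3g from -0.069 to 0.16 and Mdh2 from -0.076 to 0.033. Without 1 SPORTS array this comparison becomes that of the other SPORTS array with WT. Idh3a at -0.31 is therefore its sedentary difference from WT, and 1.42 its exercised difference. Without a WT array the 3-group fit has no residual degrees of freedom, so only values were compared. Over all genes, 836 were called on the sedentary array against WT, and 0 without a filter, 1611 with a floor, 2110 with normexp, 2170 when all 4 arrays had to be above background and 2816 with a variance trend. For both SPORTS arrays against both WT arrays 0 were called, but 1 with quantile normalization and 1 with normexp. Leaving out 1 SPORTS array repeats the comparison of the other one with WT. Each gene but Fh rests on 1 spot per array. Probes with at least 3 spots in the same signal range had a median SD of 0.04 between spots, which limits differences of that size.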
